A study of Mus musculus with 9 samples.

Results

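The 10 genes described here encode the reelin pathway and the cytoskeletal machinery of radial migration in the cerebral cortex: Reln, Dab1, Vldlr, Lrp8, Rnd2, Rnd3, Cdk5, Cdk5r1, Dcx and Pafah1b1. They were taken by name from the 78275 gene IDs of the count table, and all 10 passed the filter on low counts, as did 27773 genes in all. None of the 10 passed the test for a difference in transcript level under a hairpin against Gpc4 or Gpc2. For 8 of them the 95% interval in the main edgeR fit lay within 1.5-fold in either direction in every comparison. Neither Gpc4 nor Gpc2 passed that test under its own hairpin.

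Reelin (Reln) is a large secreted glycoprotein, released in the embryonic cortex mainly by Cajal-Retzius cells beneath the pial surface. It binds the lipoprotein receptors VLDLR (Vldlr) and ApoER2 (Lrp8) on migrating neurons, whereupon Src family kinases phosphorylate the adaptor Dab1. Newborn neurons climb along radial glial fibres, for which they need the kinase Cdk5 with its activator p35 (Cdk5r1), the microtubule protein doublecortin (Dcx), the dynein regulator Lis1 (Pafah1b1) and the atypical small GTPases Rnd2 and Rnd3. Mice that lack reelin, Dab1, or both receptors have disordered cortical layers.

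RNA was sequenced from wild-type mouse embryos electroporated in utero at E14.5, with mCherry-positive forebrain cells sorted at E16.5, 48 h later. The plasmids carried mCherry and a hairpin that targets Gpc4 (group sh-Gpc4), one that targets Gpc2 (group sh-Gpc2) or a non-targeting one (group sh-NT), and each group has 3 libraries. Both targets are glypicans, proteoglycans of the cell surface that bear heparan sulfate chains. All 3 groups share the electroporation, the fluorescent protein and the sort, and no unelectroporated group was analysed here. The sorted cells are a mixture that the labels call cortical progenitors and neurons, so each value is an average over cell types. In such bulk RNA, fewer cells of a type and less RNA per cell cannot be told apart. Libraries are named by their column numbers, which are 1, 3 and 4 for sh-Gpc4 and 1, 2 and 4 for sh-Gpc2 and for sh-NT. Whether a group's libraries stem from separate litters or animals is not stated, so the p-values reflect only how these samples spread, which may be technical.

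The promoter sequences of 2 genes are shown because these lie at the opposite ends of the expression range described next. The 250 bases before the RefSeq start site of Reln, the gene with the lowest level per length, lie on the minus strand at chr5:22344706-22344955 of GRCm38.p6. Those of Dcx, the gene with the highest level, lie on the minus strand at chrX:143933220-143933469. Capitals mark GGGCGG (a GC box) and TATAAA, each searched on both strands, with no overlap between the motifs.
Reln: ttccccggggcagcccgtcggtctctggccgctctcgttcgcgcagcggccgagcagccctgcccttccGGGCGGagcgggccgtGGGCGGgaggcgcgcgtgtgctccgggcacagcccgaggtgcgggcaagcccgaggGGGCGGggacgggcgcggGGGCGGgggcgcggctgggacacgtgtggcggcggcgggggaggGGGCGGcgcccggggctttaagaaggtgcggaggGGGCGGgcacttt
Dcx: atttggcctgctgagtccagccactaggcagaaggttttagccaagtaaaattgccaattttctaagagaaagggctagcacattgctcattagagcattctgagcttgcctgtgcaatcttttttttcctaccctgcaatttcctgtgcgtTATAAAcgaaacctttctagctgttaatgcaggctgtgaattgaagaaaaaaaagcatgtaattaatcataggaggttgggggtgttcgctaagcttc
The Reln window held 6 GC boxes and no TATAAA, and G or C made up 80.0% of its bases. The Dcx window held 1 TATAAA and no GC box, and G or C made up 41.6% of it. Among 32841 RefSeq promoters of the same length, 32.7% held a GC box, 12.4% held TATAAA, and the median GC content was 52.4%. Both motifs were chosen with the sequences in view, and a match of letters does not show a site that is used. RefSeq promoters were found for 7 of the 10 genes, all but Rnd2, Cdk5 and Cdk5r1.

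The libraries held 48045603 to 66538437 reads. Levels are given as CPM, read counts scaled to library size with TMM factors for library composition, and a gene was called at an adjusted p under 0.05. The first principal component of log2 CPM, with 71.6% of the variance, set sh-Gpc4 library 3 and sh-Gpc2 library 4 apart from the rest, with sh-Gpc4 library 4 next. Gpc4 was at 137, 99.9 and 129 CPM in sh-Gpc4, against 165, 188 and 175 CPM in sh-NT, and Gpc2 was at 167, 145 and 79.6 CPM in sh-Gpc2, against 199.7, 207 and 161 CPM in sh-NT. Neither difference passed edgeR's test (adjusted p = 0.488 for Gpc4 in sh-Gpc4 and 0.968 for Gpc2 in sh-Gpc2), so the depth of the knockdown is itself uncertain. Gpc2 was also at 168, 70.3 and 96.6 CPM in sh-Gpc4, a log2 fold change of -0.76 against sh-NT (SE 0.33, adjusted p = 0.488 in edgeR) beside -0.54 (SE 0.33) in sh-Gpc2. Its lowest values were in sh-Gpc4 libraries 3 and 4 and sh-Gpc2 library 4, at the far end of the first principal component. In sh-Gpc4 library 1 it lay within the sh-NT range. Gpc4 was lowest in sh-Gpc4 library 3, followed by sh-Gpc2 library 4 at 116 CPM. How far the hairpins account for these values was not tested. Markers of the labelled cell types were present in every library, with all 10 markers of newborn and migrating neurons, all 10 of radial glia and all 8 of intermediate progenitors past the filter. Microglial markers were present too, their summed level running from 1269 to 1803 CPM in sh-Gpc4, from 490.7 to 1624 CPM in sh-Gpc2 and from 932 to 1396 CPM in sh-NT.

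Levels of the 10 genes were compared per length, as CPM per kb of annotated exon sequence averaged over the 9 libraries. Dcx was highest at 47.8, followed by Rnd2 at 38.4, Rnd3 at 36.9 and Cdk5 at 32.0. Lrp8 at 20.9, Pafah1b1 at 18.7, Dab1 at 18.5 and Cdk5r1 at 16.55 formed a middle group. Vldlr stood at 3.46 and Reln at 0.130. In only 3 places did the ranges of neighbours in this order not overlap: between Cdk5 and Lrp8, between Cdk5r1 and Vldlr, and between Vldlr and Reln. The order of Dcx over Rnd2, of Cdk5 over Lrp8 and of Lrp8 over Pafah1b1 held in all 9 libraries, whereas Pafah1b1 exceeded Dab1 in 3 of 9 and Rnd2 exceeded Rnd3 in 5 of 9. The receptor Lrp8 was thus far above the receptor Vldlr per length in all 9 libraries, and the ligand was the lowest of the 10. The exon length is the union over all annotated transcripts, so a gene with long rarely used exons is placed too low.

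**Figure D1:**
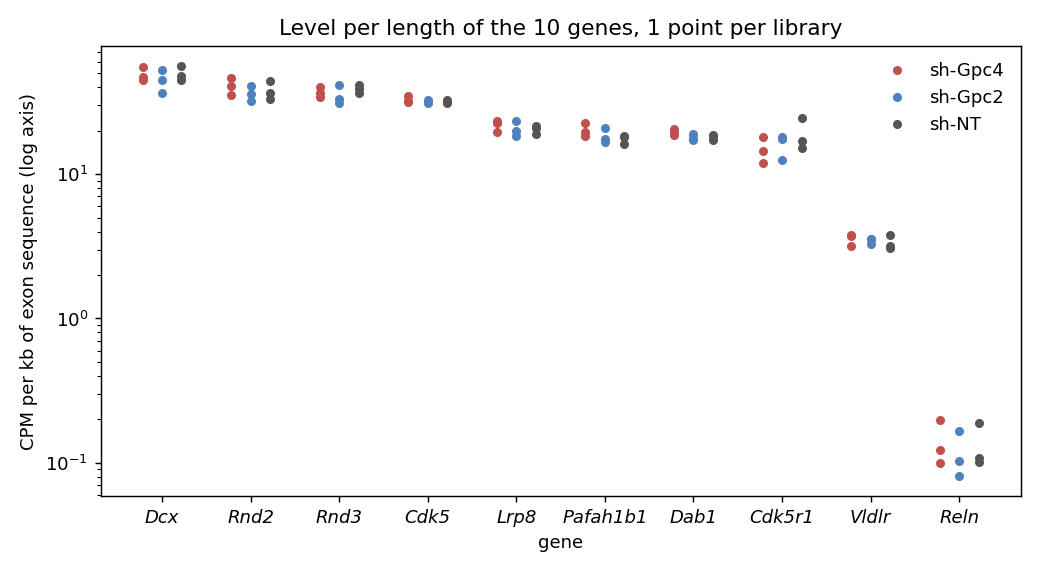
Level of each of the 10 genes as CPM per kb of exon sequence (vertical log axis), 1 point per library, with sh-Gpc4, sh-Gpc2 and sh-NT from left to right within each gene. The order runs from Dcx, with a mean of 47.8, to Reln at 0.130, and the points of the 3 groups lie side by side at similar heights.

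The ligand Reln (ENSMUSG00000042453, GRCm38 chromosome 5, 21884454 to 22344702, minus strand) was counted at 95 to 318 reads per library. It was at 2.92, 2.37 and 4.68 CPM in sh-Gpc4, at 3.92, 2.45 and 1.93 CPM in sh-Gpc2, and at 4.46, 2.41 and 2.58 CPM in sh-NT. Each group held 1 library well above its other 2, and all 3 groups overlapped. The log2 fold change was 0.08 in sh-Gpc4 against sh-NT (SE 0.35, 95% interval -0.71 to 0.87, adjusted p = 0.927 in edgeR's quasi-likelihood test). It was -0.19 in sh-Gpc2 against sh-NT (SE 0.35, 95% interval -0.98 to 0.61, adjusted p = 0.968 in edgeR). Both intervals reach past 1.5-fold in either direction, so the data do not exclude a change of that size in Reln. Its coefficient of variation over the 9 libraries was 32.7%, where counting error alone would give 7.37%.

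Markers of Cajal-Retzius cells, the usual source of reelin, were low in the sorted cells. The 10 markers of these cells other than Reln summed to 13.05 to 22.7 CPM in sh-Gpc4, to 12.6 to 15.8 CPM in sh-Gpc2 and to 10.6 to 14.9 CPM in sh-NT. Of the 10, 8 passed the filter, all but Lhx1 and Lhx5. Nhlh2 at 5.97 to 9.17 CPM and Calb2 at 0.371 to 8.39 CPM reached the highest levels. Trp73, a transcription factor of these cells, was at 0.135 to 0.557 CPM. The highest Reln value, in sh-Gpc4 library 4, came with the highest Cajal-Retzius sum of 22.7 CPM. The next highest, in sh-NT library 1, came with the highest sum of GABAergic interneuron markers, 61.2 CPM, where the other 8 libraries had 21.0 to 35.0 CPM. Interneurons are a further source of reelin, and the part of either cell type in the Reln values was not tested.

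Of the receptors, Vldlr (ENSMUSG00000024924, chromosome 19, 27216484 to 27254231, plus strand) was at 32.2, 37.5 and 38.1 CPM in sh-Gpc4, at 35.6, 36.0 and 33.1 CPM in sh-Gpc2, and at 38.1, 30.9 and 32.2 CPM in sh-NT. The highest sh-NT library came level with the highest sh-Gpc4 library. Vldlr had a log2 fold change of 0.09 in sh-Gpc4 (SE 0.12, 95% interval -0.17 to 0.35, adjusted p = 0.714 in edgeR) and 0.05 in sh-Gpc2 (95% interval -0.21 to 0.31, adjusted p = 0.970).

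Lrp8 (ENSMUSG00000028613, chromosome 4, 107802261 to 107876840, plus strand) was at 207, 246 and 236 CPM in sh-Gpc4, at 209, 193 and 247 CPM in sh-Gpc2, and at 226, 199 and 218 CPM in sh-NT. Its 3 highest values were in sh-Gpc4 libraries 3 and 4 and sh-Gpc2 library 4, the libraries at the far end of the first principal component. Lrp8 had a log2 fold change of 0.10 in sh-Gpc4 (SE 0.11, 95% interval -0.16 to 0.35, adjusted p = 0.690 in edgeR) and 0.01 in sh-Gpc2 (95% interval -0.24 to 0.26, adjusted p = 0.997). Without sh-Gpc4 library 3 and sh-Gpc2 library 4 the value in sh-Gpc2 was -0.11.

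Dab1 (ENSMUSG00000028519, chromosome 4, 103619359 to 104744844, plus strand), the adaptor that both receptors act through, varied little. It was at 147, 162 and 152 CPM in sh-Gpc4, at 149.8, 141 and 136 CPM in sh-Gpc2, and at 148, 135 and 143 CPM in sh-NT. Of the sh-Gpc4 libraries, 2 lay above every sh-NT library, while library 1 lay within the sh-NT range. Dab1 had a log2 fold change of 0.11 in sh-Gpc4 (SE 0.08, 95% interval -0.07 to 0.29, adjusted p = 0.543 in edgeR) and -0.0004 in sh-Gpc2 (95% interval -0.18 to 0.18, adjusted p = 0.9997). A rise of Dab1 protein is a known mark of lost reelin signalling, but protein was not measured here.

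Cdk5 (ENSMUSG00000028969, chromosome 5, 24418241 to 24423530, minus strand) was the steadiest of the 10 genes, with a coefficient of variation of 3.62%. It was at 75.1, 69.1 and 68.9 CPM in sh-Gpc4, at 68.4, 70.5 and 66.8 CPM in sh-Gpc2, and at 71.0, 67.1 and 68.2 CPM in sh-NT. Apart from sh-Gpc4 library 1, every library lay between 66.8 and 71.0 CPM. Cdk5 had a log2 fold change of 0.05 in sh-Gpc4 (SE 0.08, 95% interval -0.13 to 0.23, adjusted p = 0.797 in edgeR) and -0.0045 in sh-Gpc2 (95% interval -0.18 to 0.18, adjusted p = 0.998).

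Its activator Cdk5r1 (ENSMUSG00000048895, chromosome 11, 80477023 to 80481184, plus strand) varied far more, with a coefficient of variation of 22.5%. It was at 49.8, 74.8 and 60.0 CPM in sh-Gpc4, at 74.6, 52.1 and 72.2 CPM in sh-Gpc2, and at 63.4, 71.1 and 102 CPM in sh-NT. The value of 102 CPM in sh-NT library 4 stood well above the other 8 libraries. The log2 fold change was -0.36 in sh-Gpc4 (SE 0.22, 95% interval -0.84 to 0.13, adjusted p = 0.497 in edgeR), the largest in size among the 10 genes. It was -0.13 without sh-NT library 4 and -0.51 without sh-Gpc4 library 3. In sh-Gpc2 it was -0.25 (SE 0.22, 95% interval -0.73 to 0.24, adjusted p = 0.968 in edgeR), and -0.02 without sh-NT library 4. Both intervals reach past 1.5-fold lower, so the data do not exclude a fall of that size.

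Dcx (ENSMUSG00000031285, chromosome X, 143855842 to 143933311, minus strand) binds and stabilises microtubules in migrating neurons. It was at 569.6, 702 and 596 CPM in sh-Gpc4, at 564, 463 and 665 CPM in sh-Gpc2, and at 605, 569 and 704 CPM in sh-NT. Every group held 1 library well above its other 2, and the lowest value was in sh-Gpc2 library 2. Dcx had a log2 fold change of -0.0076 in sh-Gpc4 (SE 0.14, 95% interval -0.33 to 0.32, adjusted p = 0.982 in edgeR) and -0.15 in sh-Gpc2 (95% interval -0.475 to 0.17, adjusted p = 0.968).

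Pafah1b1 (ENSMUSG00000020745, chromosome 11, 74673949 to 74724670, minus strand), which encodes Lis1, came nearest to a difference. It was at 177, 218 and 188 CPM in sh-Gpc4, at 161, 168 and 201 CPM in sh-Gpc2, and at 175, 155 and 173 CPM in sh-NT. All 3 sh-Gpc4 libraries lay above all 3 sh-NT libraries, the nearest pair being 176.9 CPM in sh-Gpc4 library 1 and 175.5 CPM in sh-NT library 1. It was the only 1 of the 10 genes whose groups did not overlap in sh-Gpc4 against sh-NT, where 24.0% of all genes tested had groups that did not overlap. The log2 fold change was 0.21 (SE 0.12, 95% interval -0.05 to 0.47, adjusted p = 0.488 in edgeR). Exact permutation of the 6 libraries, two-sided, gave p = 0.1, below which a design of 3 and 3 cannot go. It was 0.13 without sh-Gpc4 library 3 and 0.08 after each library's trend of level on transcript GC content was removed. In sh-Gpc2 it was 0.07 (95% interval -0.19 to 0.33, adjusted p = 0.968 in edgeR).

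Rnd2 (ENSMUSG00000001313, chromosome 11, 101464999 to 101471853, plus strand), a target of Neurog2 that lowers RhoA activity in migrating neurons, was at 69.9, 92.3 and 81.2 CPM in sh-Gpc4. It was at 64.1, 71.3 and 81.3 CPM in sh-Gpc2 and at 72.9, 66.3 and 88.2 CPM in sh-NT. The lowest sh-Gpc4 library lay below the middle sh-NT library, and the groups overlapped throughout. Rnd2 had a log2 fold change of 0.10 in sh-Gpc4 (SE 0.15, 95% interval -0.23 to 0.42, adjusted p = 0.759 in edgeR) and -0.07 in sh-Gpc2 (95% interval -0.40 to 0.26, adjusted p = 0.968). With the GC trend removed these were 0.46 and 0.13, with an adjusted p of 0.452 in sh-Gpc4 in edgeR.

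Rnd3 (ENSMUSG00000017144, chromosome 2, 51130438 to 51149111, minus strand), a related GTPase that acts in the same process, was at 161, 178 and 150.3 CPM in sh-Gpc4, at 138, 182 and 147 CPM in sh-Gpc2, and at 171, 162 and 183 CPM in sh-NT. The sh-Gpc2 libraries spread widest, with library 2 near the top of the sh-NT range and the other 2 below it. Rnd3 had a log2 fold change of -0.08 in sh-Gpc4 (SE 0.12, 95% interval -0.34 to 0.19, adjusted p = 0.765 in edgeR) and -0.14 in sh-Gpc2 (95% interval -0.41 to 0.12, adjusted p = 0.968).

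**Figure D2:**
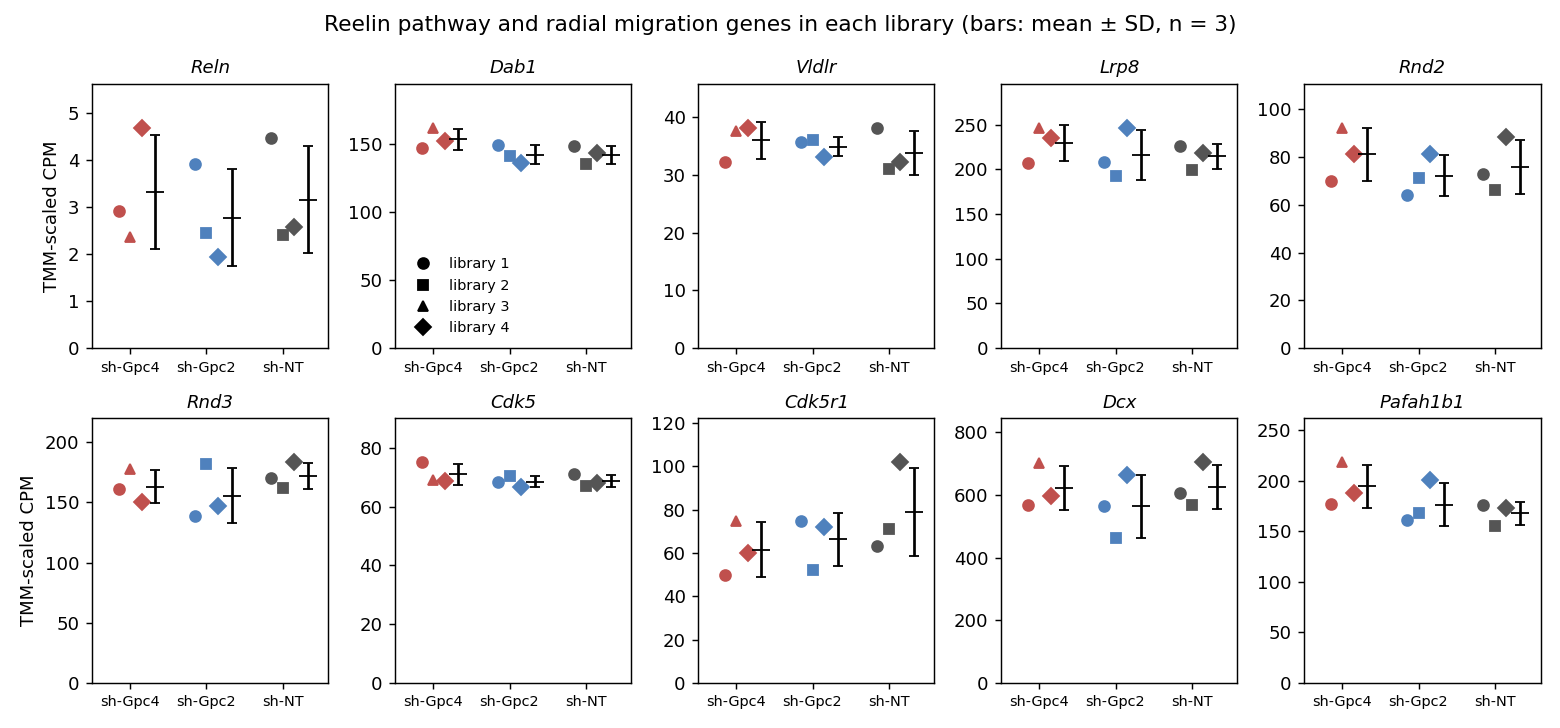
TMM-scaled CPM (vertical axes, from 0) of each gene in the sh-Gpc4, sh-Gpc2 and sh-NT libraries; marker shape gives the library number and bars the mean ± SD (n = 3). The groups overlap for every gene except Pafah1b1 in sh-Gpc4 against sh-NT, where 176.9 CPM lies next to 175.5 CPM.

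Counted over the 10 genes, none passed an adjusted p of 0.05 in edgeR in any of the 3 comparisons, and neither did any of the 27773 genes tested (0%). At an unadjusted p under 0.05 the count was also 0 of 10 in each. Over all genes it was 2657 (9.57%) when sh-Gpc4 was set against sh-NT, 712 (2.56%) when sh-Gpc2 was, and 804 (2.89%) between the 2 hairpins. The DESeq2 Wald test called 46 genes between sh-Gpc4 and sh-NT and 0 in the other 2 comparisons, with none of the 10 genes among them, and limma voom called 0 in each. Between sh-Gpc4 and sh-NT, voom nevertheless gave 9011 genes an unadjusted p under 0.05, with a smallest adjusted p of 0.0531. Pafah1b1 was among those genes, at an unadjusted p of 0.0433 in voom. Groups that did not overlap were found for 0 of 10 genes in sh-Gpc2 against sh-NT, where 7.70% of all genes had such groups, and for 0 of 10 in sh-Gpc4 against sh-Gpc2, where 5.50% did. The median size of the log2 fold change, without sign, was 0.09 for the 10 genes and 0.21 for all genes in sh-Gpc4 against sh-NT. In sh-Gpc2 against sh-NT it was 0.07 for the 10 genes and 0.15 for all. The sets differ in level, as 9 of the 10 but only 13784 of all genes passed a filter of over 5 CPM in at least 3 libraries. Genes of like level were not compared, so these medians do not show that the 10 genes changed unusually little. In the main edgeR fit, the exceptions to an interval within 1.5-fold were Reln and Cdk5r1 in each comparison.

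The hairpins were also compared directly, as a contrast in the same fit, so that the sh-NT libraries were not one side of the difference but did enter the scaling and the estimate of spread. With the sh-NT libraries left out of the fit, Reln was at 0.26 and Rnd2 at 0.16. In sh-Gpc4 against sh-Gpc2, 9 of 10 genes and 49.5% of all genes had a positive log2 fold change. The log2 fold change had a median of 0.10 for the 10 genes, against -0.0024 over all genes. It was 0.26 for Reln (95% interval -0.53 to 1.06), 0.17 for Rnd2 (-0.16 to 0.49), 0.14 for Dcx (-0.18 to 0.47), 0.14 for Pafah1b1 (-0.12 to 0.40) and 0.11 for Dab1 (-0.07 to 0.29). The lone negative value was -0.11 for Cdk5r1 (95% interval -0.59 to 0.38). All 10 adjusted p-values in edgeR were 0.966 or above. Several of the 10 genes moved together from library to library, so their signs are not independent. In a fit with libraries blocked by column number, Vldlr was at -0.0047, Lrp8 at -0.0276 and Dcx at -0.0375.

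**Figure D3:**
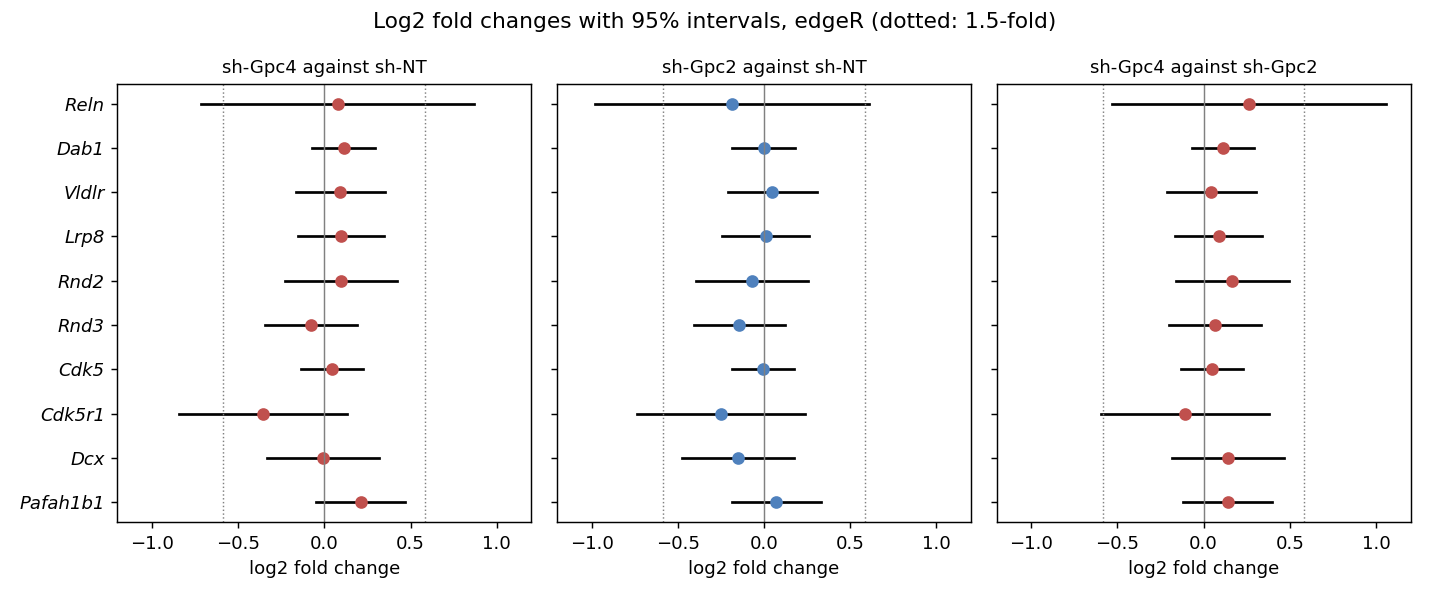
Log2 fold change (horizontal axes) of each gene with its 95% interval; from left to right the panels show sh-Gpc4 over sh-NT, sh-Gpc2 over sh-NT and sh-Gpc4 over sh-Gpc2, and dotted lines mark 1.5-fold in either direction. All 30 intervals include 0, and those of Reln and Cdk5r1 are the ones that cross a dotted line.

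Several of the 10 genes moved together from library to library, across the groups. The 3 highest values of Dcx and of Rnd2 were in sh-Gpc4 library 3, sh-Gpc2 library 4 and sh-NT library 4. These 3 libraries, 1 of each group, also had the highest summed level of the 10 markers of newborn and migrating neurons. The sum was 10586 CPM in sh-Gpc4 library 3, 11069 CPM in sh-Gpc2 library 4 and 11392 CPM in sh-NT library 4, and 8714 to 9748 CPM in the other 6. Sox11 alone was at 4778 to 6737 CPM, so the sum, and the covariate and slopes based on it, weigh that gene most. Radial glial markers ran the other way in part, lowest in sh-Gpc4 library 3 at 1719 CPM and highest in sh-Gpc2 library 2 at 3078 CPM, the library with the lowest Dcx. The summed neuron markers overlapped between groups, at 9314 to 10586 CPM in sh-Gpc4, 8714 to 11069 CPM in sh-Gpc2 and 8979 to 11392 CPM in sh-NT. With the centred neuron sum as a covariate, the log2 fold change in sh-Gpc4 was -0.02 for Dcx, 0.10 for Rnd2, 0.20 for Pafah1b1 and -0.35 for Cdk5r1, none past the threshold.

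The slopes that follow come from the covariate fit, which gave each group its own level, so they describe changes within groups. The fitted change in log2 level per unit of the log2 neuron sum was 1.13 for Dcx, 0.95 for Rnd2 and 1.495 for Cdk5r1. It was 0.64 for Pafah1b1 and 0.57 for Lrp8, but 0.0030 for Dab1, 0.08 for Rnd3 and -0.11 for Cdk5. It was -0.25 for Vldlr and -1.84 for Reln, the largest in size of the 10. Dcx, Rnd2 and Cdk5r1 are known as genes of postmitotic neurons, and these slopes are given as a description of 9 libraries that share their depth scaling.

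**Figure D4:**
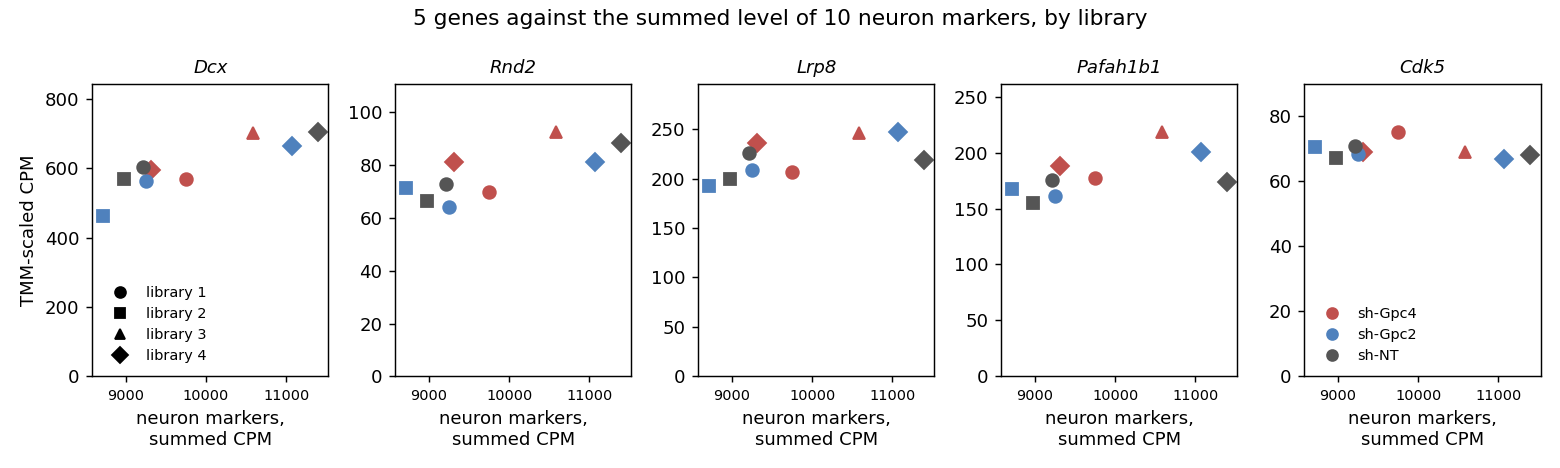
TMM-scaled CPM of 5 genes (vertical axes, from 0) against the summed CPM of the 10 neuron markers (horizontal axes), 1 point per library, coloured by group and shaped by library number. Dcx and Rnd2 are highest in the 3 libraries with sums of 10586, 11069 and 11392 CPM, 1 of each group, while Cdk5 stays between 66.8 and 75.1 CPM.

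Among all pairs of the 10 genes, the highest Pearson correlation of log2 CPM over the 9 libraries was 0.87, between Lrp8 and Pafah1b1. Rnd2 with Pafah1b1 gave 0.81 and Lrp8 with Dcx gave 0.78. Cdk5 and its activator Cdk5r1 ran in opposite directions, with -0.68, the lowest of all pairs. Library 1 of sh-Gpc4 had both the highest Cdk5 value, 75.1 CPM, and the lowest Cdk5r1 value, 49.8 CPM. How far the correlation rests on that library was not tested. The receptors Lrp8 and Vldlr gave 0.39, and the ligand Reln gave 0.59 with Vldlr and 0.0066 with Lrp8. The 9 libraries share their depth scaling, and these values describe those libraries.

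Of about 10188 expressed genes with a symbol, those most like each gene over the 9 libraries were compared by the same correlation. Pafah1b1 was closest to Zfp160 (0.99), Otud4 and Abraxas2, and Rnd2 to Pja2 (0.98), Ado and Glcci1. Lrp8 was closest to Znrf2 (0.97), Bptf and Camta1, and Rnd3 to Pafah1b2 (0.97), which encodes a catalytic partner of Lis1 in platelet-activating factor acetylhydrolase. Dcx was closest to Pcdha2, Pcdha5 and Pcdha7 (0.99 each), whose reads are uncertain because the genes of that cluster share exons. Reln was closest to Zfp609 (0.95), Cdk5r1 to Alg10b (0.95), Dab1 to Zfp599 (0.94), Cdk5 to Luc7l (0.94) and Vldlr to Mllt3 (0.82), the weakest match of the 10. Each closest match is the highest of about 10188 correlations over only 9 libraries, so a high value does not show a link in function.

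Another 65 genes of the same pathways, in 7 lists, were followed in the same fit, and all passed the filter. None was called by edgeR in any comparison. In sh-Gpc4 against sh-NT, 26 values were positive and 39 negative, with a median log2 fold change of -0.02 against 0.02 over all genes. Of all genes, 52.8% were positive. At an unadjusted p under 0.05, 1 gene was higher (3.56% of all genes) and 4 were lower (6.01% of all genes). Groups did not overlap for 2 higher genes, where 10.8% of all genes were higher in this way, and for 18 lower genes, where 13.2% of all genes were. In sh-Gpc2 against sh-NT, 18 values were positive and 47 negative, with a median of -0.10 and no unadjusted p under 0.05. Of all genes, 50.7% were positive in that comparison. Groups did not overlap for 0 higher genes (3.59% of all) and 7 lower genes (4.11% of all).

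Upstream of the receptors, the 4 proteases that cleave reelin gave negative values in sh-Gpc4 for all 4, with a median log2 fold change of -0.36. Adamts3, the main inactivating protease of reelin in the embryonic brain, was at 5.19, 4.09 and 5.36 CPM in sh-Gpc4, against 6.29, 7.75 and 5.50 CPM in sh-NT. All sh-Gpc4 values were lower, as they were for 13.2% of all genes, with a log2 fold change of -0.42 (SE 0.20, adjusted p = 0.488 in edgeR). In sh-Gpc2 it was at 6.14, 6.79 and 4.44 CPM, with -0.17. Among 7 receptor partners and adhesion molecules the median was -0.18 in sh-Gpc4 and -0.12 in sh-Gpc2. Itgb1, the integrin beta 1 subunit, was at 138, 131 and 181 CPM in sh-Gpc4, against 178, 197.5 and 201 CPM in sh-NT, a log2 fold change of -0.36 (SE 0.15). One sh-Gpc4 library lay within the sh-NT range.

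Downstream of Dab1, 22 genes of signalling and turnover had a median log2 fold change of -0.04 in sh-Gpc4 and -0.09 in sh-Gpc2. Crkl, an adaptor that binds phosphorylated Dab1, was at 183, 122 and 153 CPM in sh-Gpc4, at 177, 185 and 126 CPM in sh-Gpc2, and at 202, 202 and 197 CPM in sh-NT. Every library of both hairpin groups lay below the 3 sh-NT libraries, which are the same in both comparisons. Of all genes, 13.2% were lower in this way in sh-Gpc4 and 4.11% in sh-Gpc2. Crkl was lowest in sh-Gpc4 libraries 3 and 4 and sh-Gpc2 library 4, at the far end of the first principal component. The log2 fold change was -0.39 in sh-Gpc4 (SE 0.17, adjusted p = 0.488 in edgeR) and -0.30 in sh-Gpc2 (SE 0.17, adjusted p = 0.968 in edgeR). Fyn, the main kinase of Dab1, had values of 60.5, 79.3 and 67.8 CPM in sh-Gpc4, against 56.1, 49.4 and 61.0 CPM in sh-NT, with a log2 fold change of 0.32 (SE 0.15). The lowest sh-Gpc4 value lay within the sh-NT range.

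The 7 partners and substrates of Cdk5 had a median log2 fold change of -0.01 in sh-Gpc4 and -0.09 in sh-Gpc2. Of the 9 genes of the Lis1 and dynein list, 6 were positive in each comparison with sh-NT, with medians of 0.03 in sh-Gpc4 and 0.06 in sh-Gpc2. Dctn1, the largest dynactin subunit, had the largest change in size of the 65 genes in sh-Gpc4, at -1.24 (SE 0.64, adjusted p = 0.488 in edgeR). It was at 123, 22.3 and 56.3 CPM in sh-Gpc4, at 149.995, 141 and 29.5 CPM in sh-Gpc2, and at 141, 178 and 155 CPM in sh-NT. The 3 low values are in the 3 libraries at the far end of the first principal component, and sh-Gpc4 library 1 was near the sh-NT level.

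In the list of the doublecortin family and cytoskeletal regulators, Mapk8, which encodes the kinase JNK1, was at 207, 231 and 225 CPM in sh-Gpc4, against 199, 184 and 195 CPM in sh-NT. Its log2 fold change of 0.20 (SE 0.09, adjusted p = 0.488 in edgeR) gave the only higher value with an unadjusted p under 0.05, and it was the lone positive value of the 7 genes on the list. The other 6 were negative, with a list median of -0.33. For 4 of them all sh-Gpc4 values lay below all sh-NT values, where 13.2% of all genes were lower in this way. One of these 4 was Flna, which encodes the actin cross-linker filamin A, with a log2 fold change of -0.84 (SE 0.39, adjusted p = 0.488 in edgeR). It was at 203, 75.8 and 125 CPM in sh-Gpc4 and at 218, 252 and 93.4 CPM in sh-Gpc2. In sh-NT it was at 233, 279.9 and 211 CPM. The lowest Flna values were in sh-Gpc4 libraries 3 and 4 and sh-Gpc2 library 4, at the far end of the first principal component. In sh-Gpc2 the list again had 1 positive and 6 negative values, with a median of -0.18. Dclk1, a close relative of Dcx, was at 339, 331 and 298 CPM in sh-Gpc2 and at 356, 320 and 328 CPM in sh-Gpc4. In sh-NT it was at 369, 370.4 and 358 CPM. All values of both hairpin groups were lower than those of the same 3 sh-NT libraries. Of all genes, 4.11% were lower in this way in sh-Gpc2 and 13.2% in sh-Gpc4. The log2 fold change of Dclk1 was -0.18 in sh-Gpc2 (SE 0.08, adjusted p = 0.968 in edgeR) and -0.13 in sh-Gpc4 (SE 0.08, adjusted p = 0.508 in edgeR).

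Among regulators of the Rnd genes, Neurog2, the activator of Rnd2, was at 25.6, 24.5 and 24.6 CPM in sh-Gpc4, against 23.2, 23.4 and 26.1 CPM in sh-NT, with a log2 fold change of 0.04 (SE 0.10). Arhgap35, a RhoA inhibitor that Rnd3 engages, was at 96.8, 63.3 and 73.2 CPM in sh-Gpc4, against 105, 108 and 108 CPM in sh-NT, with -0.46 (SE 0.18, adjusted p = 0.488 in edgeR).

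GC content moved with the direction of these 65 genes. In sh-Gpc4 the 33 genes with transcripts of at least 49.5% G or C had a median log2 fold change of -0.33, with 25 negative, and the 32 below that had 0.04, with 14 negative. All genes tested, split at their own median of 48.9%, had -0.10 above it and 0.10 below it. In sh-Gpc2 the GC-rich list genes had -0.18 and the GC-poor ones -0.0042, while all genes had -0.06 and 0.04. With the GC trend removed, 41 of the 65 genes were negative in sh-Gpc4, with a median of -0.04.

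**Figure D5:**
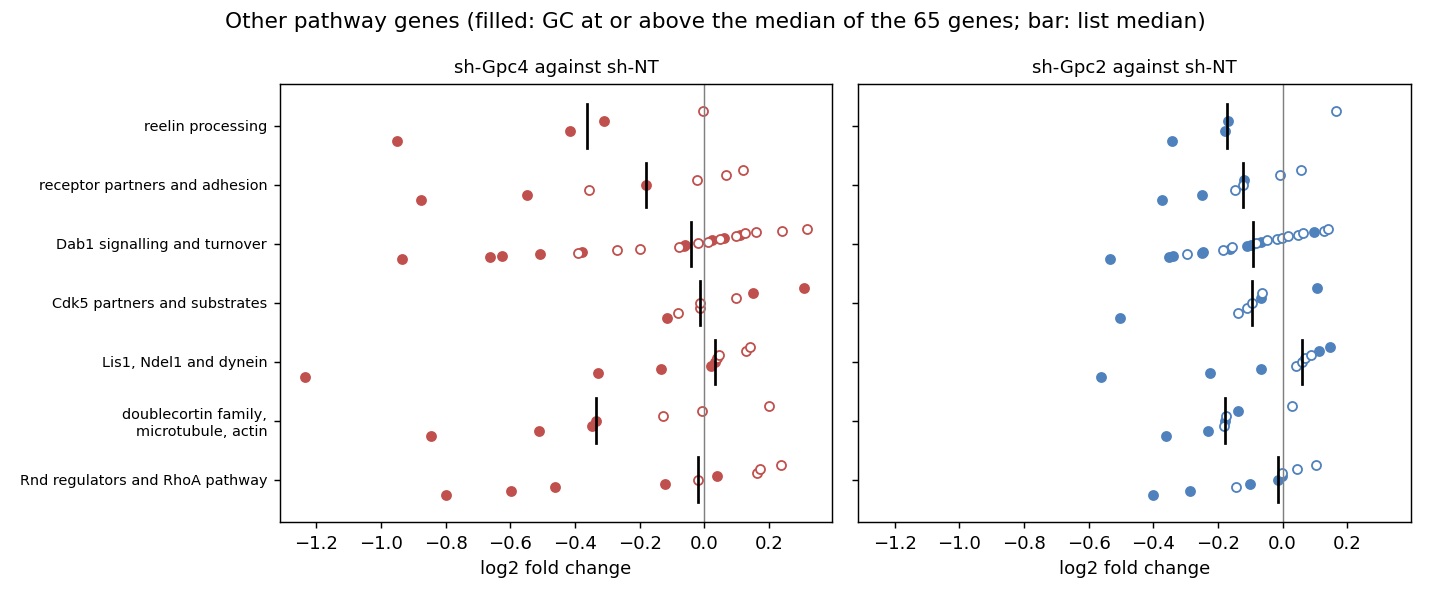
Log2 fold change (horizontal axes) of the 65 other pathway genes by list in sh-Gpc4 (left) and in sh-Gpc2 (right), each against sh-NT; filled points are the 33 genes with at least 49.5% G or C, open points the other 32, and black bars list medians. In sh-Gpc4 most filled points lie left of 0 (25 of 33), with Dctn1 farthest at -1.24.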

How the data were processed

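The data are 1 deposited table of raw counts, with 9 library columns and a row per gene. Per the submitters' processing notes the authors used featureCounts of Subread and named GRCm38 and mm10; no source used here gives the aligner, annotation, versions or use of strand. Libraries came from a low-input kit, per the labels' protocols. Symbols from GENCODE M21 matched 51486 of 78275 IDs (65.8%), with 96.8% to 97.0% of reads. The 37 mitochondrial genes had 0 reads. Pairs of libraries within a group had a chi-square of 7.65 to 81.7 per degree of freedom, above sampling noise, so none was a duplicate.

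Column numbers do not match the titles' replicate numbers, so columns were tied to groups only. edgeR 4.0.16 (R 4.3.3) quasi-likelihood tests used all 9 libraries, TMM scaling, the default low-count filter and 3 contrasts. Benjamini-Hochberg adjustment ran over 27773 genes, the threshold being 0.05. TMM factors also scaled CPM. SE is the log2 fold change over the square root of F. The edgeR step was tested on simulated data. Alternatives used DESeq2 1.42.0, limma 3.58.1 voom, other filters, 2-group fits, a replicate block and left-out libraries. Leaving out 2 libraries, GC removal (for 22126 genes) and the neuron covariate were added after seeing the data.

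Named genes are the 10, the 2 hairpin targets, up to 3 genes per list with the smallest p in each contrast with sh-NT, and the 3 most alike by correlation. The single values of 1 list gene are not reported here. Neurog2 was named beyond that rule in sh-Gpc4, after its values were seen. Nrp1 and Neurog2 are in both a pathway list and a marker list. The genes and lists were chosen with earlier results of these data known. Promoters are from RefSeq (GRCm38.p6).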

Additional observations from a re-analysis of the deposited data

How the results depend on the processing

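No alternative called any of the 10 genes: over 30 gene and comparison values and 19 alternatives (567 values) the smallest adjusted p was 0.142, for Pafah1b1 in sh-Gpc4 with limma voom, and 53 values turned sign. For 13 of the 30 the sign never turned. For all genes in sh-Gpc4 against sh-NT, the DESeq2 Wald test called 46 genes (13 higher, 33 lower) against 0 in edgeR; the cause was not tested. Reln did not pass the filter of over 5 CPM. Reln, with 95 to 318 reads per library, spread by 32.7% between libraries where counting error alone would give 7.37%, so the spread between libraries rather than depth sets its wide interval.

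Log2 fold changes that turned sign were near 0 in most cases; the cause was not tested. In sh-Gpc4 against sh-NT they were Lrp8 at -0.0254 and Rnd2 at -0.0482 with the replicate block, Rnd2 at -0.0122 without sh-Gpc4 library 3 and sh-Gpc2 library 4, and Dcx at 0.0038 with over 5 CPM. In sh-Gpc2 against sh-NT, Dab1 was at 0.0091 with voom, 0.0037 with no filter, 0.0135 with over 5 CPM, 0.0123 with 2 groups, 1e-04 with the replicate block and 0.0186 without the 2 libraries. Lrp8 was at -0.0277 with voom and -0.11 without the 2 libraries. Cdk5 was at 0.0084 with over 5 CPM, 0.0085 with 2 groups and 0.0712 with GC removed. Reln was at 0.0023 and Pafah1b1 at -0.0446 without the 2 libraries, and Rnd2 at 0.13 with GC removed. In sh-Gpc4 against sh-Gpc2, Vldlr was at -0.0047, Lrp8 at -0.0276 and Dcx at -0.0375 with the replicate block. Vldlr was at -0.0178 and Rnd3 at -0.0351 without the 2 libraries, and Rnd3 at -0.0017 with voom. Vldlr was at -0.0097 and Cdk5r1 at 0.0022 with GC removed.

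Leaving out 1 library at a time, or the 2 together, turned the sign at least once for the values that follow. In sh-Gpc4 against sh-NT the range was -0.256 to 0.412 for Reln, -0.0122 to 0.218 for Rnd2 and -0.111 to 0.0818 for Dcx. In sh-Gpc2 against sh-NT it was -0.52 to 0.149 for Reln, -0.0383 to 0.0338 for Dab1, -0.0112 to 0.143 for Vldlr, -0.11 to 0.0848 for Lrp8, -0.177 to 0.054 for Rnd2, -0.025 to 0.0184 for Cdk5 and -0.0446 to 0.135 for Pafah1b1. In sh-Gpc4 against sh-Gpc2 it was -0.0701 to 0.597 for Reln, -0.0178 to 0.115 for Vldlr, -0.0351 to 0.193 for Rnd3 and -0.273 to 0.0219 for Cdk5r1.

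Whether samples with the same column number share a litter or a batch is not stated. Their deviations correlated at -0.10 to 0.68, and not every pair was over 0.1. Pairs from different groups with unlike numbers correlated at -0.87 to 0.83. A fit with the replicate block called 0 genes in each comparison, as did the fit without it. Cdk5r1 in sh-Gpc4 against sh-NT was at -0.62 with the block (unadjusted p = 0.00872, adjusted p = 0.963 in edgeR). Without the block it was at -0.36 (unadjusted p = 0.133 in edgeR).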
